A study of Mus musculus with 8 samples.

Results

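The 10 genes described here encode matrix metalloproteinases and their inhibitors: Mmp2, Mmp12, Mmp13, Mmp14, Mmp15 and Mmp19 on the proteinase side, and Timp1, Timp2, Timp3 and Reck on the inhibitor side. They were chosen by name, as the rows with these gene symbols, and are 10 of the 17810 genes listed in RNA-Seq of mouse liver. The livers came from 4 WT and 4 HKO male mice, littermates that began CD-HFD, a diet rich in fat and lacking choline, at 8 weeks of age, ate it over 3 months and were 5 months old. HKO mice carry loxP-flanked alleles of miR-33 that are deleted by Cre recombinase under the albumin promoter, which is active in hepatocytes. Whether the deletion reaches other liver cells, such as cholangiocytes, was not tested here. The WT mice received the same diet, and a group without the diet was not analysed here.

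Matrix metalloproteinases are zinc-dependent enzymes that cut collagens, elastin, laminins and other proteins outside the cell, and most are made as inactive precursors that another protease must trim. The tissue inhibitors of metalloproteinases (TIMPs) bind the active enzymes, and Reck is an inhibitor held at the cell surface. In injured liver these genes are known mainly from macrophages and hepatic stellate cells, where TIMP1 is a common marker of scar formation and MMP12 and MMP13 are linked to the removal of scar. Whole liver RNA was measured, so fewer cells of a type and less RNA per cell cannot be told apart in any value below.

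Of the 10 genes, 8 had enough counts to be tested between the genotypes, and edgeR's quasi-likelihood model called 0 of the 8 (adjusted p under 0.05, Benjamini-Hochberg over all genes tested). Over all 12395 genes tested, 5.03% were called. The abundant proteinases and inhibitors (Mmp14, Mmp15, Mmp19, Timp2 and Timp3) differed between the genotype means by less than 1.3-fold. The 4 genes with the lowest mean CPM (Mmp12, Mmp2, Mmp13 and Timp1) each had fewer counts in HKO livers. Mmp12 was 3.02-fold lower with an adjusted p of 0.0748 from edgeR. Timp1 was too scarce for the fit and had 4 counts in all over the HKO livers against 26 over the WT livers. Mmp13, also too scarce for the fit, had 21 counts against 37, and Mmp2, which was tested, had 76 against 103. Both overlapped between the genotypes, with an adjusted p of 0.682 from edgeR for Mmp2. For Mmp13 a two-sided exact permutation test over livers gave p = 0.314. Of all 12395 genes tested, 5993 had a log2 fold change below 0.

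The libraries held 12174352 to 18735791 counts each, and 3 counts were taken as the floor of detection. CPM, the unit used below, is a count divided by its library's TMM-scaled size. In this unit 3 counts ranged from 0.149 CPM in WT replicate 3 to 0.255 CPM in HKO replicate 4. Hepatocyte markers made up 73523 to 126474 CPM in every liver, and the summed markers of each of 8 cell types overlapped between the genotypes. Of 6 hepatocyte markers tested by edgeR, 3 had a log2 fold change above 0 and 3 below it. The 2 that were called were both higher in HKO livers, where 5.03% of all tested genes were called. They were Cps1 of the urea cycle (log2 fold change 1.26, adjusted p = 0.00433, edgeR) and the transcription factor Hnf4a (0.36, adjusted p = 0.0406). Hnf4a was called in 1 of 8 fits without a liver. HKO replicate 2 stood apart. Its summed cholangiocyte markers (6 genes, with Krt19, Krt7, Epcam, Sox9 and Cftr among them) reached 61.5 CPM against 17.3 to 31.7 CPM in the other 7 livers, and its summed macrophage markers (10 of 10 in the table, 0 of them at 0 in all livers) were 84.2 CPM against 244 to 262 CPM in the other HKO livers. The macrophage sum was 115 CPM in WT replicate 1, 153 CPM in WT replicate 4 and 279 to 288 CPM in the other WT livers. The HKO libraries were numbered 55 to 58 and the WT libraries 59 to 62, so that genotype and place in the series cannot be told apart. Mir33 was not analysed here, and genotypes were taken from the labels.

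The sequence that HKO hepatocytes lack is the mature miR-33, shown because the comparison turns on it. Its seed, bases 2 to 8, is in capitals. The sequence is from RefSeq on GRCm38.p6, at chr15:82198127-82198147 on the plus strand.
mmu-miR-33-5p: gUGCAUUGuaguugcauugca

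A 7-base match to the seed (CAATGCA for bases 2 to 8, or AATGCAA for bases 2 to 7 followed by A, on the transcript's strand) occurred in the longest annotated 3'UTR of 2 of the 10 genes, Mmp2 and Mmp13. Of 11554 tested genes with an annotated 3'UTR, 17.6% held one. The Mmp2 match lies at bases 232 to 238 of a UTR of 755 bases, and the Mmp13 match at bases 189 to 195 of 1213. Both are shown with a few flanking bases and the match in capitals. The letters are a match to the seed and nothing here measured binding.
Mmp2 site: tggatatttgCAATGCAgccct
Mmp13 site: attttaaagtAATGCAAttgag

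**Figure D1:**
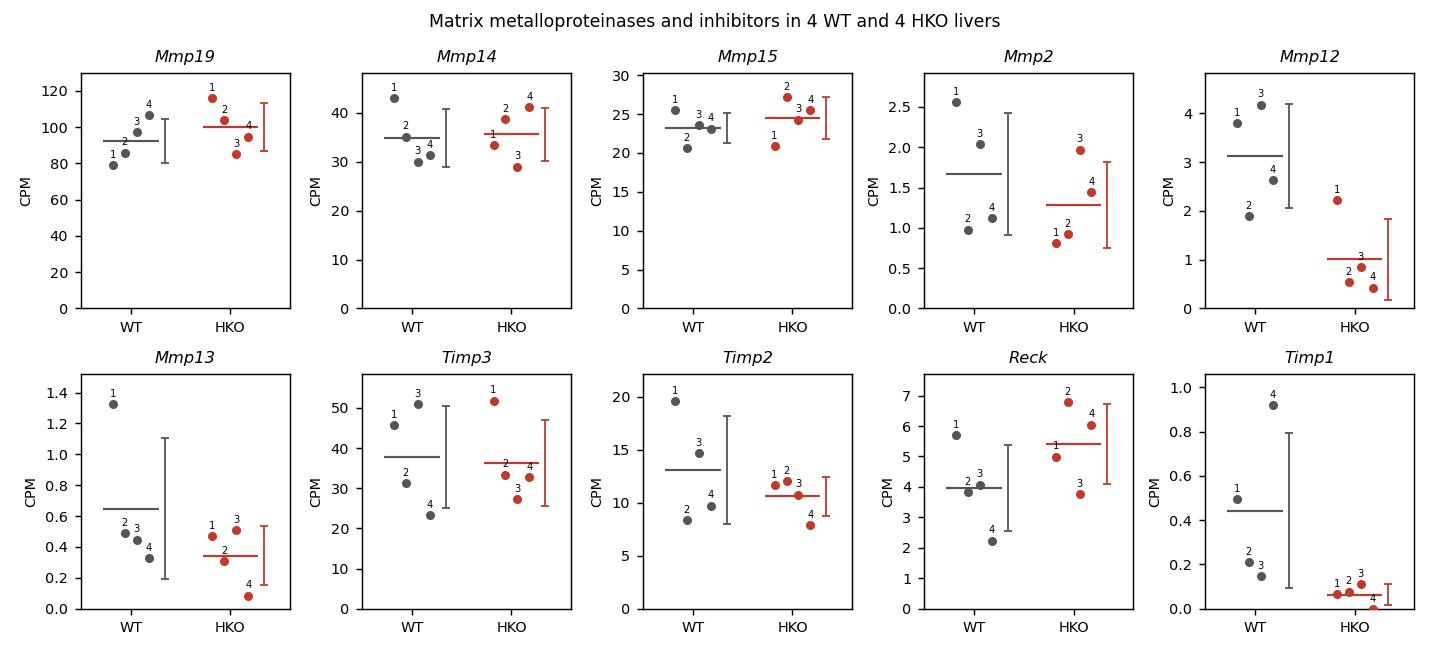
CPM of the 10 genes (y axes, each from 0) in WT and HKO livers; each point is 1 liver marked with its replicate number, horizontal lines are means and bars are the SD (n = 4 livers), cut at 0 where they would pass it. Timp1 is the panel in which the genotypes do not overlap, and for Mmp12 HKO replicate 1 lies above WT replicate 2.

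Mmp12, the elastase of macrophages, is also among the genes that the study picked out from these livers. For its heat maps the study states a cutoff of 1.5-fold and an adjusted p under 0.05. In edgeR here Mmp12 did not reach that adjusted p. Mmp12 gave the largest fold change of the 8 tested genes. It lies on chromosome 9 from 7344397 to 7360461, on the plus strand. WT livers held 3.80, 1.88, 4.18 and 2.63 CPM (replicates 1 to 4), and HKO livers held 2.23, 0.540, 0.845 and 0.426 CPM. As counts these are 46, 27, 84 and 40 against 33, 7, 15 and 5. The 3 other HKO livers were below every WT liver, while HKO replicate 1 lay above WT replicate 2, so the groups overlapped. The means were 3.12 ± 1.06 CPM (SD, n = 4) and 1.01 ± 0.831 CPM (SD, n = 4). This is a log2 fold change of -1.60 with a standard error of 0.455 and a 95% interval of -2.60 to -0.593, and the adjusted p was 0.0748 (edgeR's quasi-likelihood test, Benjamini-Hochberg). Before adjustment its p was 0.00502, and 19.8% of all tested genes had an unadjusted p under 0.05. A two-sided exact permutation test, with 70 ways to allot the livers, gave p = 0.0571, where 0.0286 is the smallest possible.

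The call on Mmp12 depended on the model and on 1 liver. DESeq2 gave a log2 fold change of -1.61 with an adjusted p of 0.0197, and limma-voom gave -1.79 with an adjusted p of 0.0465. DESeq2 called 7.67% and limma-voom 4.91% of all genes they tested. Without HKO replicate 1 edgeR gave -2.31 with an adjusted p of 0.0103, and leaving out any of the 7 other livers gave an adjusted p between 0.0962 and 0.174. With the replicate number as a block, a fit that called 3.68% of all genes, it was -1.75 with an adjusted p of 0.0389. That fit also lost calls, among them those of Col1a2 and Col3a1. Without HKO replicate 2, the liver with the low macrophage sum, the log2 fold change was -1.40 with an adjusted p of 0.145 from edgeR. Beside it, none of the 10 macrophage markers was called, with a median log2 fold change of -0.02, and 0 of them had an unadjusted p under 0.05 or was called by DESeq2 or limma-voom. Of the 5 tested markers of lipid-associated macrophages, 2 had a log2 fold change above 0 and 3 below it. In edgeR 4 were not called, and Gpnmb, a glycoprotein of lipid-laden macrophages, was called lower. It had 11, 11, 30 and 21 counts in WT livers and 2, 0, 1 and 2 counts in HKO livers (adjusted p = 0.00410, edgeR). The summed level of that list overlapped, from 58.95 to 94.2 CPM in WT livers and 47.0 to 89.9 CPM in HKO livers. The part of macrophage number or state in the Mmp12 values was not tested.

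Mmp13, a collagenase that cuts fibrillar collagen, lies next to Mmp12 on chromosome 9, from 7272514 to 7283333 on the plus strand. It had 16, 7, 9 and 5 counts in WT livers and 7, 4, 9 and 1 counts in HKO livers. WT replicate 1, at 1.32 CPM, stood above the other WT livers, at 0.329 to 0.489 CPM, and the HKO livers, at 0.0851 to 0.507 CPM, overlapped with them. The gene did not pass edgeR's expression filter. Run without a filter, edgeR gave a log2 fold change of -0.73 with an adjusted p of 0.592. From DESeq2 it was -0.85 with an adjusted p of 0.615. The ratio of WT to HKO counts per total counts was 1.75, with an exact 95% interval of 0.997 to 3.15 that covers counting error only. The two-sided exact permutation test over livers gave p = 0.314.

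Mmp2, gelatinase A, a product of stellate cells and fibroblasts, lies on chromosome 8 from 92827297 to 92853421 on the plus strand. It had 31, 14, 41 and 17 counts in WT livers (2.56, 0.977, 2.04 and 1.12 CPM) and 12, 12, 35 and 17 counts in HKO livers (0.810, 0.926, 1.97 and 1.45 CPM). High and low livers occurred in both genotypes. The genotypes differed by -0.35 on the log2 scale (standard error 0.389, 95% interval -1.20 to 0.500), with an adjusted p of 0.682 from edgeR. It moved to -0.10 without WT replicate 1 and to -0.67 without HKO replicate 3, and lay between these without any of the other livers. A change of the size of 2-fold lower is inside the interval, so the data do not show that Mmp2 was the same in both genotypes.

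Mmp14, the membrane-anchored collagenase that activates the precursor of Mmp2, was well measured. It lies on chromosome 14 from 54431598 to 54442456 on the plus strand. The WT livers held 43.0, 35.1, 30.0 and 31.3 CPM and the HKO livers 33.4, 38.8, 29.0 and 41.1 CPM, and these ranges overlapped. It differed by 0.03 on the log2 scale (standard error 0.136, 95% interval -0.27 to 0.328, adjusted p = 0.939 from edgeR), and its sign changed under total count scaling and without each of 4 livers.

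Mmp15, a second membrane-anchored proteinase, lies on chromosome 8 from 95352296 to 95374293 on the plus strand and varied least. It was 25.5, 20.7, 23.6 and 23.1 CPM in WT livers and 20.9, 27.2, 24.3 and 25.5 CPM in HKO livers. The highest and the second lowest values were both HKO livers. Its log2 fold change of 0.08 (standard error 0.105, 95% interval -0.15 to 0.305, adjusted p = 0.755 from edgeR) became -0.01 under total count scaling.

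Mmp19, a secreted proteinase of basement membrane proteins, was the most abundant of the 10 genes. It lies on chromosome 10 from 128790910 to 128800827 on the plus strand. It was 78.9, 85.9, 97.4 and 107 CPM in WT livers and 116, 104, 84.9 and 94.7 CPM in HKO livers, and these ranges overlapped. For Mmp19 the log2 fold change was 0.12 (standard error 0.116, 95% interval -0.14 to 0.369, adjusted p = 0.648 from edgeR). Its estimated counts were fractional in all 8 livers and its coordinates overlap those of Tmem198b on the other strand over 792 bases. Tmem198b was at 2.39 to 4.73 CPM, and without a stated strand setting reads from the shared stretch cannot be told apart.

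Timp1, the inducible inhibitor, was the inhibitor in which the genotypes did not overlap, and it was also the scarcest in CPM. It lies on the X chromosome from 20870166 to 20874737 on the plus strand. WT livers held 6, 3, 3 and 14 counts (0.496, 0.209, 0.149 and 0.920 CPM) and HKO livers held 1, 1, 2 and 0 counts (0.0675, 0.0772, 0.113 and 0 CPM). Every HKO liver was below every WT liver, all HKO livers were under the floor of 3 counts, and 2 WT livers were at it. The ratio of WT to HKO counts per total counts was 6.45, with an exact 95% interval of 2.24 to 25.4 for counting error only, and WT replicate 4 gave 14 of the 26 WT counts. The two-sided exact permutation test over livers gave p = 0.0286, the smallest that 4 against 4 allow. Among the 2650 genes under the expression filter with at least 10 counts in all, 4.83% did not overlap and 3.43% did so with HKO lower. When edgeR was run without a filter Timp1 had an adjusted p of 0.104, and DESeq2 gave it no adjusted p. Timp1 lies inside Syn1, a gene of the other strand listed at 0.255 to 0.647 CPM, so part of these few reads could belong to either gene. The estimated counts of both genes were whole in every liver.

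Timp2, an inhibitor that also helps Mmp14 to activate Mmp2, lies on chromosome 11 from 118301061 to 118355411 on the minus strand. It was 19.6, 8.38, 14.7 and 9.73 CPM in WT livers and 11.7, 12.0, 10.8 and 7.92 CPM in HKO livers. WT replicate 1 was the highest, and the HKO livers lay closer together than the WT livers, a difference in spread that was not tested. Timp2 differed by -0.30 on the log2 scale (standard error 0.259, 95% interval -0.88 to 0.278, adjusted p = 0.580 from edgeR), and by -0.05 without WT replicate 1.

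Timp3, which is bound to the matrix and also inhibits ADAM proteinases, lies on chromosome 10 from 86300412 to 86349505 on the plus strand, inside Syn3 of the other strand (0.463 to 2.81 CPM, with fractional counts in all 8 livers). It was 45.7, 31.3, 50.9 and 23.3 CPM in WT livers and 51.8, 33.4, 27.3 and 32.8 CPM in HKO livers. Both genotypes held livers near 50 CPM and near 30 CPM. On the log2 scale it differed by -0.06 (standard error 0.290, 95% interval -0.73 to 0.618, adjusted p = 0.945 from edgeR), with a sign that changed without each of 3 livers.

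Reck lies on chromosome 4 from 43875530 to 43944806 on the plus strand. It was 5.70, 3.84, 4.08 and 2.23 CPM in WT livers and 4.99, 6.79, 3.78 and 6.04 CPM in HKO livers. The highest 2 livers were HKO and the lowest was WT, with the rest mixed. It differed by 0.45 on the log2 scale (standard error 0.270, 95% interval -0.15 to 1.04, adjusted p = 0.403 from edgeR), and lay between 0.25 (without WT replicate 4) and 0.663 (without WT replicate 1) when 1 liver was left out, at 0.32 without HKO replicate 2. Over the 8 tested genes 4 log2 fold changes were above 0 and 4 below it, with a median of -0.01 against 0.01 over all genes tested, and 0 of the 8 had genotypes that did not overlap, against 12.5% of all tested genes (7.19% with HKO lower). Mmp12 alone of the 8 had an unadjusted p under 0.05, and it alone differed by over 1.5-fold, as did 9.42% of all tested genes.

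**Figure D2:**
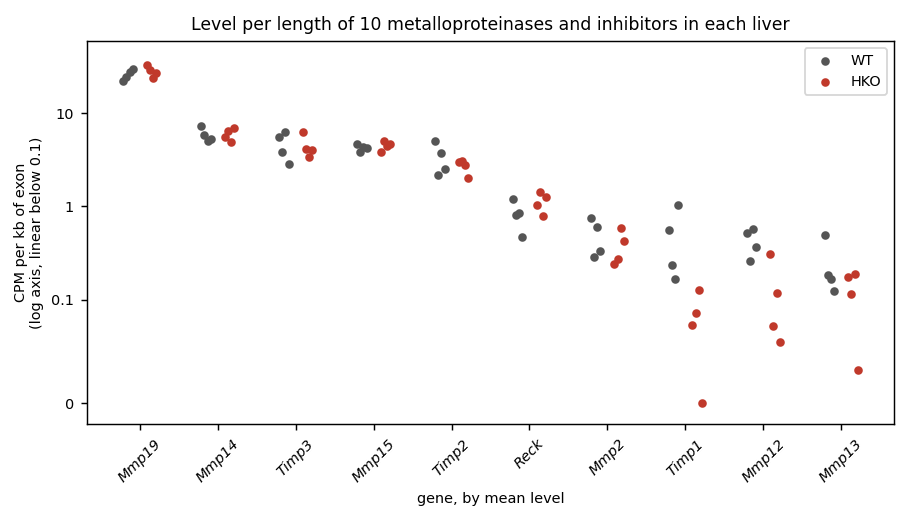
Level of each gene in each liver as CPM per kb of exon sequence (y axis, log scale, linear below 0.1), with genes in the order of their mean; each point is 1 liver. Mmp19 stands above all others at 22.3 to 32.8 CPM per kb, and the last 4 genes reach below 0.25.

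Per length of exon (CPM per kb of the merged exons of a gene), the order of mean levels was Mmp19 at 27.2, Mmp14 at 5.91, Timp3 at 4.55, Mmp15 at 4.42, Timp2 at 3.04, Reck at 0.980, Mmp2 at 0.439, Timp1 at 0.286, Mmp12 at 0.286 and Mmp13 at 0.185. The last places depend on the genotype: Timp1, Mmp12 and Mmp13 had means of 0.500, 0.432 and 0.242 in WT livers and of 0.0725, 0.139 and 0.128 in HKO livers. Mmp19 was above Mmp14, and Timp2 above Reck, with no overlap of their ranges over the 8 livers. The neighbours Mmp14 and Timp3, Timp3 and Mmp15, Mmp15 and Timp2, Reck and Mmp2, and the last 4 genes overlapped, and Timp3 was above Mmp15 in 4 of 8 livers. Reck was above Mmp2 within each of the 8 livers, although their ranges met. The 4 inhibitors made up 14.5% to 25.6% of the summed level per kb of the 10 genes in WT livers (median 19.6%) and 15.8% to 19.6% in HKO livers (median 17.2%). Mmp19 gave 61.9% to 74.5% of the proteinase sum in WT and 68.8% to 76.3% in HKO livers, and Timp3 gave 41.7% to 56.6% and 47.2% to 60.7% of the inhibitor sum.

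The promoters of 3 genes are printed, those of the 4 scarcest genes that have a window (Mmp2 has none), with the letters in capitals of the AP-1 site TGAGTCA or its reverse complement TGACTCA, of the variant TGAGTAA or TTACTCA, and of TATAAA on the gene's strand. AP-1, the factor of Jun and Fos, is the textbook inducer of this gene family. Each window runs from 250 bases before to 50 after a start listed by RefSeq on GRCm38.p6, and all are on the plus strand. Mmp12 has 2 windows. The first (chr9:7344147-7344446), at the start of the gene as listed in the count table, holds 0 of these motifs, and the second (chr9:7347124-7347423) holds AP-1 at -44. Mmp13 (chr9:7272264-7272563) holds AP-1 at -35, and Timp1 (chrX:20869916-20870215) holds the variant at 27 after the start.
Mmp12 promoter, first window: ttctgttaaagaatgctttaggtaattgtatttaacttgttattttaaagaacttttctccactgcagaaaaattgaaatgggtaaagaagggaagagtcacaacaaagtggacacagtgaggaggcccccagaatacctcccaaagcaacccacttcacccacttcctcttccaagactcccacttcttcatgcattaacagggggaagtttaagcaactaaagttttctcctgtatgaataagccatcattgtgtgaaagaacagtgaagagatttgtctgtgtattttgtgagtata
Mmp12 promoter, second window: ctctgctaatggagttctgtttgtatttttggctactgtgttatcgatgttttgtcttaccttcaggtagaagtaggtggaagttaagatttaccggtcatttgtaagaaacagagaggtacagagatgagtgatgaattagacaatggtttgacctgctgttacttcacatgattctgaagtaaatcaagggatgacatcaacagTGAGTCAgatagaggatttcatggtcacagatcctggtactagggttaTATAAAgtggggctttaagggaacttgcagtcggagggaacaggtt
Mmp13 promoter: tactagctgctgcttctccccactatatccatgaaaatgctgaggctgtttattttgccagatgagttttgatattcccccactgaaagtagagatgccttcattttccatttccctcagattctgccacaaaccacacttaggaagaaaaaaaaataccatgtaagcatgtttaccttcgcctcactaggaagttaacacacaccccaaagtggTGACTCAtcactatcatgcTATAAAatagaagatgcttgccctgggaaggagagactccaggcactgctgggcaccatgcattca
Timp1 promoter: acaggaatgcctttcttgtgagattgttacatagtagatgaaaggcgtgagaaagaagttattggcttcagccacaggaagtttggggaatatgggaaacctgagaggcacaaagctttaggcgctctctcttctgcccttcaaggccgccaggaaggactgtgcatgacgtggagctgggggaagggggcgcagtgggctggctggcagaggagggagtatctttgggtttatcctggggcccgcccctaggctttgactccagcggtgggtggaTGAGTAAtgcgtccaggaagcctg

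Of 32851 RefSeq promoters of this length, 5.20% held the AP-1 letters on either strand, 2.68% the variant and 8.32% TATAAA on the strand of the gene. Windows were found for 8 of the 10 genes, all but Mmp2 and Mmp19. AP-1 letters and TATAAA were found in 1 of the 2 windows of Mmp12, the second, and in the window of Mmp13, and the variant in Timp1. A gene with 2 windows has more chances of a match than the single windows of the background. The GC box (GGGCGG or CCGCCC, in 35.7% of promoters) was found in the windows of Mmp14, Mmp15, Timp1, Timp2, Timp3 and Reck. These are matches of letters and no occupancy was measured.

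Mmp12 and Mmp13 belong to a cluster of 6 listed family genes on chromosome 9, from 7272514 to 7699585, with Mmp3, Mmp8, Mmp27 and Mmp7. Mmp7, matrilysin, a proteinase of glandular and bile duct epithelium, was at 0 counts in all 4 WT livers and at 3, 250, 0 and 1 counts in HKO livers, so that HKO replicate 2 alone reached 19.3 CPM. In the same liver Krt19, a keratin of bile ducts, was at 16.9 CPM, Epcam at 16.5 CPM and Cftr at 3.17 CPM. There were 16 genes with at least 10 CPM in this liver and at least 10-fold more than in any other, Mmp7 among them, and without this liver Mmp7 was at 0 to 0.202 CPM everywhere. The source of these reads was not tested. The other 11 remaining family genes in the table (Mmp3, Mmp8, Mmp9, Mmp11, Mmp17, Mmp21, Mmp23, Mmp24, Mmp27, Mmp28 and Timp4) were at or below 1.32 CPM in every liver. Of these 11 genes Mmp27 was tested, with a log2 fold change of -0.23 and an adjusted p of 0.856 from edgeR. Mmp17, under the filter, had 8, 4, 7 and 5 counts in WT livers and 3, 1, 2 and 3 counts in HKO livers. Its genotypes did not overlap in CPM (two-sided exact permutation test, p = 0.0286), as in 4.83% of genes under the filter with at least 10 counts in all (3.43% with HKO lower).

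**Figure D3:**
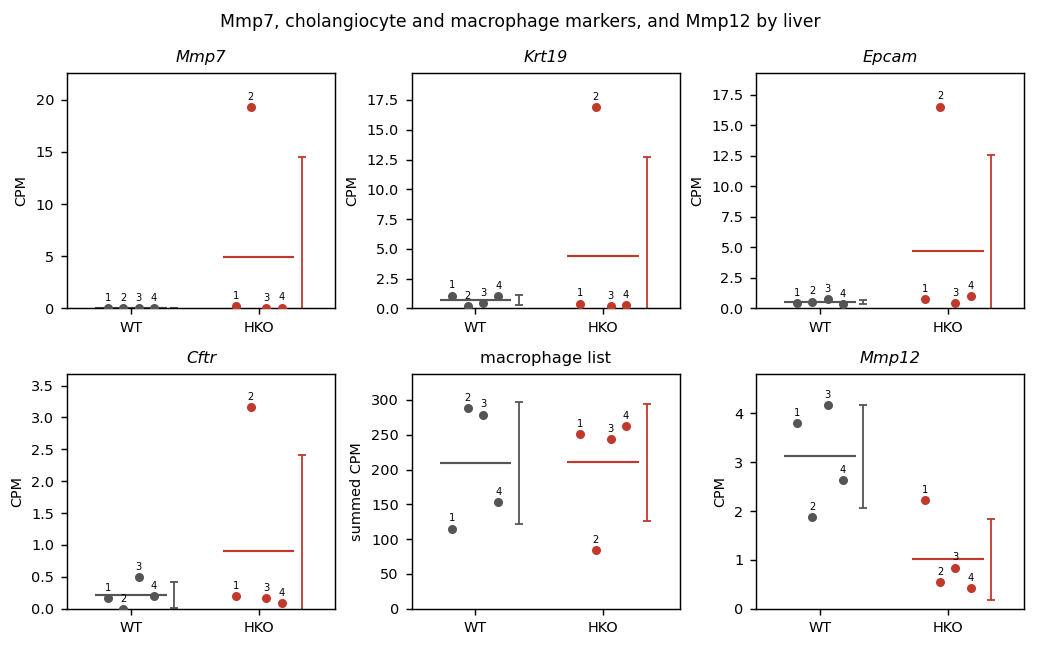
CPM of Mmp7, of 3 cholangiocyte markers and of Mmp12, and the summed CPM of 10 macrophage markers (y axes from 0) in WT and HKO livers; points are livers with their replicate number, lines are means and bars the SD (n = 4), cut at 0. HKO replicate 2 is high for Mmp7, Krt19, Epcam and Cftr, and lowest for the macrophage sum at 84.2 CPM.

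Proteases and inhibitors that govern activation and removal of metalloproteinases were examined as a list of 22 genes, 19 of them tested, of which 3 were higher and 3 lower in HKO livers (6 of 19, against 1.66% of all tested genes higher and 3.37% lower). The median log2 fold change of the 19 was -0.11, and those that rose were not of 1 function: Plg encodes plasminogen, the precursor of the metalloproteinase activator plasmin, while Serpinf2 encodes the plasmin inhibitor alpha-2-antiplasmin and Serpine2 a serpin that inhibits thrombin and plasminogen activators. Those that fell include Tfpi2, a Kunitz-type inhibitor of plasmin held in the matrix, and Pcsk6, a furin-like convertase.

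Serpine2 rose from 7.07 ± 2.55 CPM to 25.1 ± 8.43 CPM (SD, n = 4 each), with HKO livers of 32.0, 18.4, 32.8 and 17.3 CPM against a WT maximum of 10.6 CPM. It rose by 1.83 on the log2 scale (SE 0.313, adjusted p = 0.0169, edgeR), and the adjusted p was 0.0662 without WT replicate 1 and 0.0531 without WT replicate 3. Serpinf2 rose from 259 ± 28.6 CPM to 379 ± 34.4 CPM (log2 fold change 0.55, adjusted p = 0.0112 from edgeR), with no overlap.

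Plg was among the most abundant of these genes, rising from 2104 ± 134 CPM to 2698 ± 179.5 CPM without overlap. The difference on the log2 scale was 0.36 (standard error 0.093) at an adjusted p of 0.0498 from edgeR, and of 8 fits with 1 liver fewer 1 called it, the one without WT replicate 4, with adjusted p from 0.0377 to 0.167. Tfpi2 fell from 148 ± 19.4 CPM to 100.2 ± 3.11 CPM (log2 fold change -0.57, adjusted p = 0.00842 from edgeR), and Pcsk6 from 129 ± 15.6 CPM to 85.4 ± 9.93 CPM (log2 fold change -0.59, adjusted p = 0.0109 from edgeR). Serpinf2, Tfpi2 and Pcsk6 kept their calls without each liver in turn. Of the genes not called, Furin, the main convertase for the membrane-anchored metalloproteinases, was 136 ± 6.16 CPM and 133 ± 8.68 CPM (log2 fold change -0.03, 95% interval -0.20 to 0.132). Plat, tissue plasminogen activator, had a log2 fold change of -1.44 with an adjusted p of 0.209 from edgeR. The protease scavengers Pzp (log2 fold change 0.29) and Lrp1 (0.27), the metalloproteinase inducer Bsg (-0.11) and plasma kallikrein Klkb1 (0.38) were abundant and not called, with adjusted p from 0.0986 to 0.536 in edgeR.

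**Figure D4:**
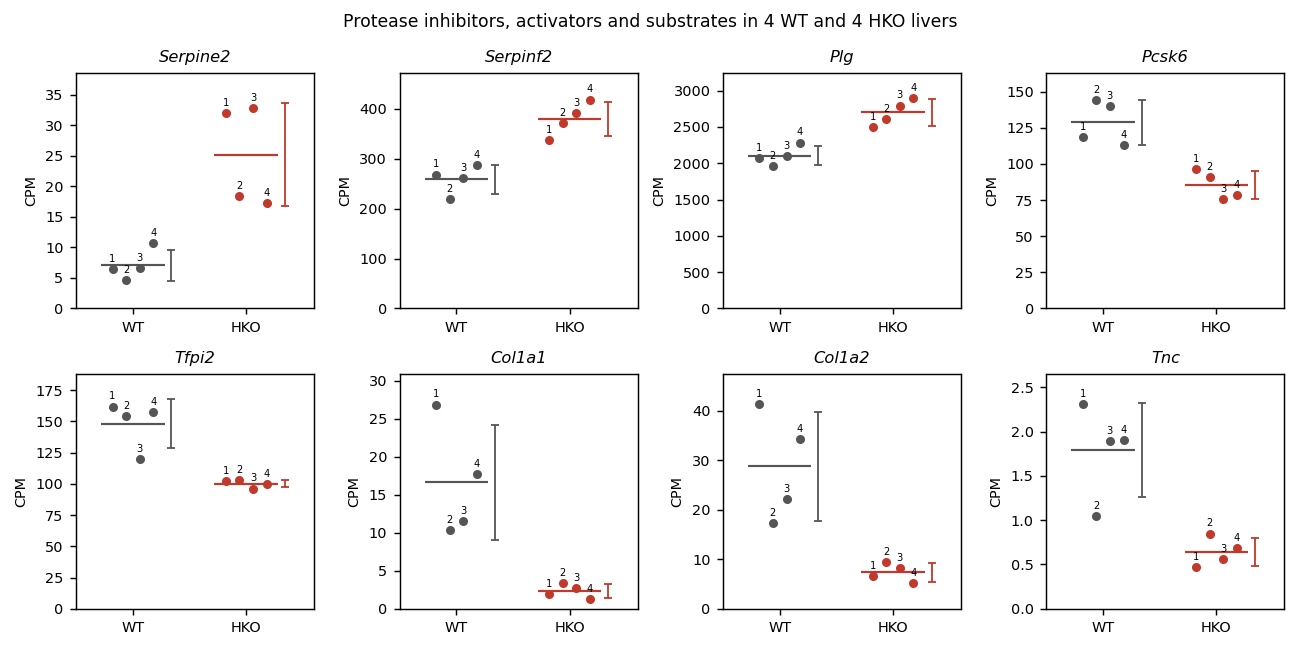
CPM (y axes from 0) of 8 called genes, 5 of protease activation and 3 of the matrix, in WT and HKO livers; points are livers with their replicate number, lines are means and bars the SD (n = 4). In each of the 8 panels the genotypes do not overlap, with HKO higher for Serpine2, Serpinf2 and Plg.

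Proteins that metalloproteinases cut, or that lie in the same matrix, formed a list of 27 genes, 26 of them tested, of which 1 rose and 6 fell (against 1.66% higher and 3.37% lower over all genes tested). DESeq2 called 10 of the list and limma-voom 5, without Col5a2 and Col6a1 (against 7.67% and 4.91% of all genes they tested). Of the 26, 24 had a negative log2 fold change and the median was -0.52, against 0.01 over all genes tested. Col1a1, Col1a2, Col3a1, Col5a2, Col6a1 and Tnc, all 6 that fell, are among the genes that the study itself picked out from these livers, so the count is not independent evidence of its direction. Col1a1, the main chain of type I collagen, was 26.9, 10.3, 11.5 and 17.7 CPM in WT livers and 1.96, 3.40, 2.70 and 1.28 CPM in HKO livers. It fell 7.03-fold (adjusted p = 0.00723 from edgeR), the largest fold among the called genes of the protease and matrix lists. Col1a2 fell 3.90-fold, Col3a1 3.66-fold and Col5a2 2.84-fold. Col1a2 and Col3a1 were called without each liver in turn but not with the replicate number as a block (adjusted p = 0.0816 and 0.0863, edgeR), and Col5a2, which overlapped between genotypes, in 4 of 8 fits, losing its call without WT replicate 1 or 3 or HKO replicate 3 or 4 (adjusted p from 0.0523 to 0.0613).

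Tnc, tenascin C, a matrix protein of injured tissue, fell from 1.79 ± 0.533 CPM to 0.642 ± 0.163 CPM (log2 fold change -1.48, adjusted p = 0.0306 from edgeR), and 2 of the 8 fits without a liver called it, those without WT replicate 2 and HKO replicate 2 (adjusted p from 0.0344 to 0.0918). Col6a1 fell 1.82-fold (adjusted p = 0.0452 from edgeR) and kept its call in 1 of 8 fits, that without WT replicate 4 (adjusted p up to 0.130). Vtn, vitronectin, a plasma protein that also binds to matrix, rose from 1109 ± 115 CPM to 1557 ± 149 CPM (log2 fold change 0.49, adjusted p = 0.0229 from edgeR), and lost its call without WT replicate 1, 2 or 3 or HKO replicate 4 (adjusted p from 0.0527 to 0.0896). Fibronectin (Fn1), which hepatocytes release into plasma, was 1215 ± 30.3 CPM and 1471 ± 5.83 CPM with no overlap, and was not past the threshold of edgeR (log2 fold change 0.28, adjusted p = 0.0631, and 0.0550 from limma-voom), while DESeq2 called it (adjusted p = 2.14e-06). Sparc (log2 fold change -0.51), Bgn (-0.17) and Dcn (-0.07) were not called, with adjusted p of 0.160, 0.687 and 0.802 in edgeR. Beside these genes, 0 of the 12 stellate cell and fibroblast markers were called (0 also at an unadjusted p under 0.05, in DESeq2 and in limma-voom), and their sums overlapped, at 291 to 399 CPM in WT and 272 to 441 CPM in HKO livers.

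**Figure D5:**
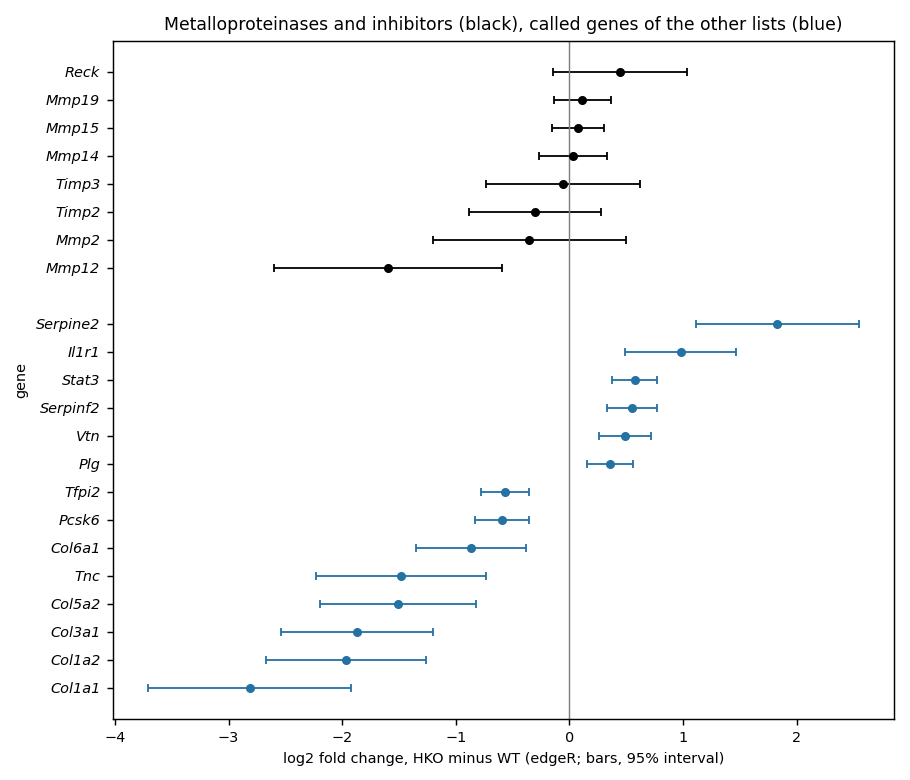
Log2 fold change of HKO against WT (x axis; below 0 means lower in HKO) with its 95% interval from edgeR, for the 8 tested metalloproteinase and inhibitor genes (black) and 14 of the 15 called genes of the protease, matrix and inducer lists (blue). Of the black intervals Mmp12 alone lies to 1 side of 0, at -2.60 to -0.593 before any adjustment for the number of genes.

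Inducers and receptors known to act on metalloproteinase genes formed a list of 24, of which 23 were in the table and 19 tested; 2 rose and 0 fell (against 1.66% and 3.37% of all genes tested), and the median log2 fold change was 0.10. DESeq2 and limma-voom each called 3 (against 7.67% and 4.91% of all genes they tested). Il1r1 and Jun are among the genes that the study picked out from these livers, with a stated cutoff of adjusted p under 0.05 that Jun did not reach in edgeR here. Stat3, which carries the signal of interleukin 6, rose from 59.2 ± 5.68 CPM to 88.1 ± 6.33 CPM (log2 fold change 0.57, standard error 0.089, adjusted p = 0.00496 from edgeR) with no overlap, and kept its call without each liver in turn. Il1r1, the interleukin 1 receptor, was 34.6, 41.0, 52.4 and 50.6 CPM in WT livers and 69.6, 88.2, 125 and 69.0 CPM in HKO livers. It rose 1.97-fold (SE 0.216 on the log2 scale, adjusted p = 0.0393, edgeR), with a call in 3 of 8 fits without a liver (HKO replicates 1, 3 and 4) and adjusted p up to 0.126. Jun, a subunit of AP-1, was 19.5 ± 1.43 CPM and 13.3 ± 2.87 CPM, without overlap and with an adjusted p of 0.0516 from edgeR (log2 fold change -0.56), 0.0188 from DESeq2 and 0.0399 from limma-voom. Fos, its partner, had a log2 fold change of 0.15 with an adjusted p of 0.908 from edgeR, and was at 3.94 CPM in HKO replicate 2 against 1.01 to 2.07 CPM in the other livers. The cytokines Il6 and Tnf were below the filter, at 12 counts or fewer in every liver. The receptors Tnfrsf1a (-0.01), Tgfbr1 (0.10), Il6ra (0.51) and Tgfbr2 (-0.30) had log2 fold changes that were not called, with adjusted p from 0.156 to 0.970 in edgeR.

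Related proteases of the ADAM and ADAMTS families, with tolloid proteinases such as Bmp1, were a list of 23 genes with 16 tested. Timp3 also inhibits some of the ADAM and ADAMTS proteinases. In edgeR 0 were called, 2 had an unadjusted p under 0.05, and DESeq2 and limma-voom each called 0. Over all genes tested these shares were 5.03% called and 19.8% unadjusted in edgeR, 7.67% in DESeq2 and 4.91% in limma-voom. The most abundant were Adam9 (log2 fold change -0.13), Adam10 (0.07), the procollagen proteinase Bmp1 (0.15) and Adam17 (0.19), each with an adjusted p above 0.3 in edgeR. Cathepsins and their inhibitor cystatin C, which act on matrix in lysosomes or after release, were a list of 9 with 8 tested. Of these 0 were called by edgeR, 3 had an unadjusted p under 0.05, DESeq2 called 2 and limma-voom 1, beside the same shares of all genes. In 2 of the 8 the genotypes did not overlap, against 12.5% of all tested genes. Ctsl was 551 ± 65.4 CPM and 735 ± 78.6 CPM with no overlap (log2 fold change 0.42, adjusted p = 0.0509 from edgeR and 0.00561 from DESeq2), and Ctsd was 214 ± 19.3 CPM and 173 ± 13.3 CPM with no overlap (log2 fold change -0.31, adjusted p = 0.0706 from edgeR and 0.0263 from DESeq2). Ctsb (-0.10) and Ctsh (0.08) overlapped between the genotypes.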

How the data were processed

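RNA-Seq was made from 8 livers, 4 per genotype, and the authors deposited estimated counts per gene from the expectation-maximization method of Partek, unnormalized, after alignment with STAR (versions, genome build and strand setting not given in the sources used here). Since the labels give rRNA depletion as well as a kit for small RNA, the type of library is uncertain. Coordinates were taken as listed. Of 17789 symbols that matched RefSeq genes of GRCm38, 82.5% had the same start or end, as did all 10 genes described here. Within a tolerance of 1e-06, 80.6% of the deposited values are whole. Each column name and sample title carries its own animal number, but the descriptions of the 4 WT samples all begin with the same one. The titles were followed, and p-values measure the spread between mice if the titles are right.

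Counts were rounded and tested for genotype with edgeR 4.0.16 (R 4.3.3; TMM, filterByExpr with a minimum count of 10, robust quasi-likelihood test, Benjamini-Hochberg over 12395 genes, threshold 0.05). The alternatives used DESeq2 1.42.0, limma 3.58.1 (voom), the legacy quasi-likelihood method, other scalings and filters, a fold above 1.5, each liver left out, and a block for the replicate number. Intervals are 95%, from the standard error and the fit's degrees of freedom. For single genes a two-sided exact permutation test of log2 CPM (prior count 2) ran over the 70 allocations. Ratios of counts have exact (Clopper-Pearson) intervals. Exon lengths and 3'UTRs are of GENCODE M21, promoters and miRNA of RefSeq. Python 3.11.15 with scipy 1.17.1 was used outside R, and the fits were tested on simulated data.

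The 10 genes and all lists were chosen with earlier results of these data known. Named are these 10, the other listed Mmp and Timp genes, and from each list the called genes and up to 4 of the most abundant not called. Furin, Plat, Jun, Fos, Il6 and Tnf were named after their values were seen, and markers are given mostly as sums. Some genes that the lists, counts and sums include are not reported here by name.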

Additional observations from a re-analysis of the deposited data

Results flagged for a closer look

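Among 81 groups of 4 livers (CPM of genes given in the text and summed cell type markers), 6 held 1 liver well away from its 3 fellows. Chance flags about 1 in 20 groups, or about 4. Mmp13 was 1.32 CPM in WT replicate 1 and 0.329 to 0.489 CPM in the remaining WT livers. Mmp7 was 19.3 CPM in HKO replicate 2 against 0 to 0.202 CPM in the other HKO livers. The summed macrophage markers were 84.2 CPM in HKO replicate 2 against 244 to 262 CPM. In WT replicate 1 the summed markers of lipid-associated macrophages were 94.2 CPM against 58.95 to 61.8 CPM, and those of cholangiocytes 24.6 CPM against 20.8 to 21.1 CPM. Hnf4a, a hepatocyte transcription factor, was 471 CPM in WT replicate 3 against 435 to 441 CPM.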

How the results depend on the processing

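Of the 10 genes, 0 were called by edgeR, and 1, Mmp12, was called by DESeq2, by limma-voom and without HKO replicate 1, so that leaving out each liver gave 0 to 1. Both genotypes use the same replicate numbers for different mice. Same-numbered livers had correlations of their deviations from the genotype means between -0.148 and 0.012, 0 of 4 pairs over 0.1, and 0 livers correlated best with their own number, so the numbers were not taken as pairs. With the replicate block 1 of the 10 genes was called (Mmp12, log2 fold change -1.75, adjusted p = 0.0389 from edgeR), 14 listed genes in place of 15, 10 of them shared, with Plg, Col1a2, Col3a1, Col5a2 and Tnc lost, and 456 of all genes in place of 624. DESeq2 called 989 genes, and 367 passed with a fold above 1.5 as well. Leaving out each liver gave 212 to 598 genes, the fewest without WT replicate 2, with 272 without WT replicate 1 and 364 without HKO replicate 4, and 8 to 16 listed genes, with 8 without WT replicate 1 and 9 without WT replicate 3. Mmp14 was -0.053 under total count scaling and -0.047 to 0.147 on the log2 scale without each liver. Mmp15 was -0.01 under total count scaling, and Timp3 was -0.28 to 0.123 without each liver. Total count scaling moved the median of all genes to -0.08 and the share of calls that were higher from 33% to 16.1%. Over 26 named genes and all settings there were 438 values. Of these 369 kept direction and side of the threshold, 56 lost and 4 gained a call (all 4 Mmp12), and 9 changed sign. Mmp12 was not tested with at least 10 counts required in every liver. Of the edgeR fits, that without a filter alone tested Timp1 and Mmp13, and DESeq2 gave an adjusted p for Mmp13 but not for Timp1. Changes of Timp1, Mmp13 and Mmp2 were poorly measured.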

Other observations

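The tested genes whose centred log2 CPM over the 8 livers lay nearest to that of Mmp12 were looked up after its values were seen. They were Ccnb2 (root mean square difference 0.301), Lama2 (0.374), Tpx2 (0.374), Cenpe (0.434) and Svep1 (0.448). Ccnb2, Tpx2 and Cenpe are genes of cell division, and Lama2 and Svep1 encode matrix proteins. Of the 5, edgeR called Tpx2 (log2 fold change -1.66, adjusted p = 0.0354) and Cenpe (-1.87, adjusted p = 0.0132). Genes picked for lying near Mmp12, itself lower in HKO livers, are lower by that choice, so these calls add no evidence. Of all tested genes 3.37% were called lower. In HKO replicate 3, 12 genes had at least 10 CPM and at least 10-fold more than any other liver, 9 of them Mup genes for major urinary proteins, whose reads can be shared between near-identical copies.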
